A study of Homo sapiens with 2 samples.

Results

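Among the RBMS3-binding sites that CLIP-seq located in the MDA-MB-231 line, 3284 of 27706 (11.9%) lay in the last 100 nt of an annotated transcript without either of the usual poly(A) signal hexamers beside them. They were selected on the deposited counts and on position and sequence. A site entered the set if its deleted base lay in a same-strand 3′UTR of GENCODE release 44 (hg38), if under 30% of the tags covering it carried the deletion, and if it was 100 nt or less upstream of a transcript 3′ end. A site was then kept only if neither AATAAA, the canonical poly(A) signal, nor its variant ATTAAA was found within 25 nt on either side. The members made up 17.8% of the 18490 3′UTR sites with such low deletion percentages and 24.5% of the 13428 of these that were within 100 nt of an end. They belonged to 1720 genes and lay upstream of 1899 annotated ends. Neighbouring sites of a strand with gaps of at most 50 nt were treated as a cluster, and the members lay in 1823 clusters.

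MDA-MB-231 is a long-established human cell line from triple-negative breast cancer. The cells had been stably transduced with a lentiviral vector that expresses RBMS3 with a FLAG tag, so the protein mapped was the introduced one, and MDA-MB-231 also has RBMS3 of its own. The cells were irradiated with ultraviolet light, and RNA bound to the tagged protein was recovered with beads against FLAG, tailed with poly(A), captured on oligo(dT) and sequenced. All libraries belonged to 1 group, FLAG-tagged RBMS3, with 2 biological replicates and no treatment, and no control library was analysed here. The source and cell line labels of replicate 2 read MDA-MB-232, whereas its title reads MDA-MB-231, and it was taken as its title says. The list was called on the pooled tags of both replicates, so no value has an error between replicates, and intervals below are 95% Wilson intervals that cover counting error only.

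Most mRNAs are made by cutting the primary transcript and adding a poly(A) tail. The cleavage and polyadenylation specificity factor reads AATAAA or a relative of it a short distance upstream of the cut, cleavage factor Im binds UGUA further upstream, and the cleavage stimulation factor binds U- or GU-rich sequence past the cut. Many human genes have several such ends, and the weaker ones often have a relative of the canonical hexamer in its place. RBMS3 belongs to a family of proteins with RNA recognition motifs that bind A- and U-rich RNA. In CLIP-seq, reverse transcriptase can skip the base to which the protein was crosslinked, and such a deletion marks the site.

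The sequences around the 3 members with the most deletions, and around the 4 with the most deletions among members that had none of the 11 poly(A) signal hexamers described below, show the bases at sites with neither AATAAA nor ATTAAA within 25 nt. An end can still hold a signal outside that window. Each is 30 nt of the hg38 reference on the transcript strand, written 5′ to 3′, and stops at the annotated end where the end was closer. Capitals mark the run of identical bases that holds the deletion. The list places a deletion within such a run at its lowest coordinate, so the base within the run is not known.
B2M, chr15:44718090-44718119, plus strand: ttgtggttaatctggTTTatttttgttcca
TIMP3, chr22:32863011-32863040, plus strand: taaacagtaaagtggTTTTatttctatcac
EMP1, chr12:13216717-13216746, plus strand: attttgatacaaatgTTTataactctaggg
NDUFAF3, chr3:49023257-49023286, plus strand: ttatcaacataataaTTTatacacttctcc
IGFBP4, chr17:40457672-40457701, plus strand: cttttcttctttttcTTTTTTTTaacaaaa
SRM, chr1:11054589-11054618, minus strand: cactcaccaaacacgtgtaTTTatagcaaa
MICB, chr6:31511078-31511107, plus strand: attatgtgtgcataaTTTataccgtaaatg
In all 7 the deletion was in a run of 3 or more T, followed by A. Among all members, 1853 of 3284 (56.4%) had the deletion in such a run, and A followed in 834 of these 1853 (45.0%). NDUFAF3, IGFBP4, SRM and MICB are the 4 without any of the hexamers within 25 nt of the site and in the last 100 nt before the end.

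A further group of sequences shows the relatives of the canonical hexamer that stood beside members close to an end. Here capitals mark the hexamer.
TIMP3, chr22:32863011-32863040, plus strand: taaacAGTAAAgtggttttatttctatcac
SSR1, chr6:7287574-7287603, minus strand: tgagaataatgtgttCATAAAgcatggatc
WASF2, chr1:27404230-27404259, minus strand: ataatttGATAAAgtctttgtagccactca
SUMO3, chr21:44805617-44805646, minus strand: taaacagtaAATATAgtttggtattctgtc
COL13A1, chr10:69958895-69958924, plus strand: tatgtctctAATACAttttttgtttggtcg
VDAC2, chr10:75231248-75231277, plus strand: ataatgaAATAGAcctttatgaaaactgtg
Each of these 6 was among the members with the most deletions that had the hexamer shown and lay under 25 nt from an end without AATAAA or ATTAAA, with each gene shown once. The site in WASF2, a regulator of actin assembly, had 822 deletions in 13484 tags, 11 nt from the end. The site in VDAC2, a channel of the outer mitochondrial membrane, had 1052 in 17139 tags, 14 nt from the end. In both genes the deletion was in a run of 3 T a few nucleotides downstream of the hexamer.

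The members rested on deep coverage. Coverage was a median of 4975 tags per member (quartiles 1997 and 12078, range 111 to 112132), of which a median of 66 carried the deletion (quartiles 49 and 108, range 32 to 2194). The deletion percentage had a median of 1.83% (quartiles 0.801% and 3.58%). These counts and percentages were part of the rule and of the site calling, so they are given without a test. The 8417 end-proximal sites that had AATAAA in the same window were covered by a median of 7985 tags, with 78 deletions and 1.35%. The 1852 internal sites, over 100 nt from an end and likewise without either signal, had a median of 3496 tags, 62 deletions and 2.34%. Nearly every member had deletions in far fewer than 30% of its tags, and 3101 of the 3284 remained with a limit of 10%. The members just inside the limit were in EEF1A1 (40 of 134 tags, 29.9%), SNRNP48 (37 of 125 tags, 29.6%) and a gene known by its identifier ENSG00000272772 (51 of 174 tags, 29.3%). Just outside it were sites in ZFP36L1 (7182 of 23840 tags, 30.1%), PAWR (64 of 209 tags, 30.6%) and NME1 (32 of 103 tags, 31.1%). In total 360 sites met all the other criteria with a deletion percentage of 30% or more.

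**Figure D1:**
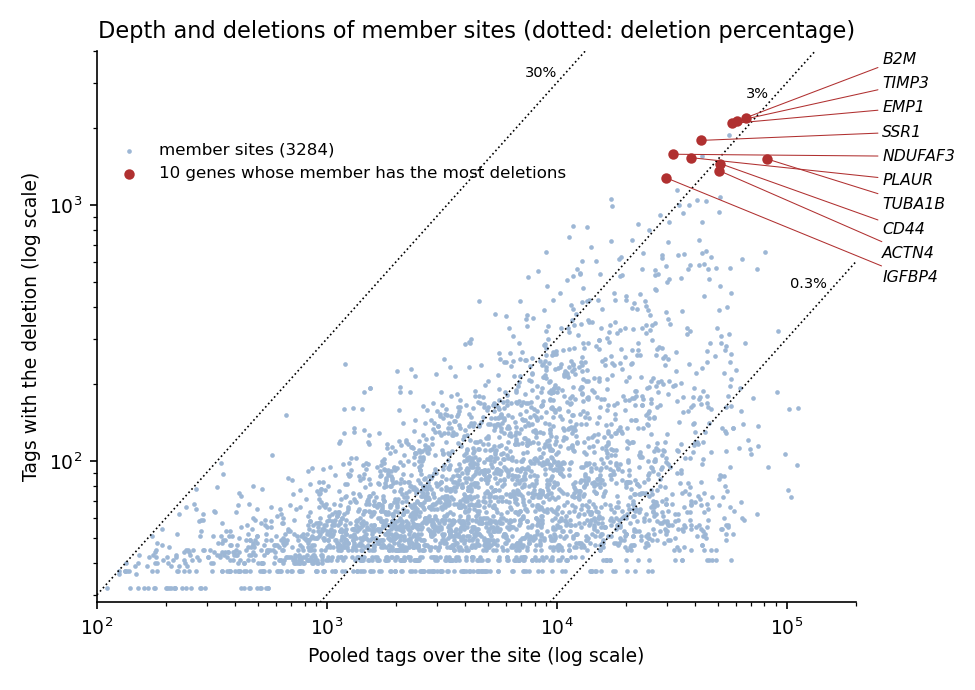
Tags with the deletion against pooled tags for the 3284 members, both on log scales, with dotted lines at deletion percentages of 30, 3 and 0.3%. Red points are the members with the most deletions in the 10 genes named at the right, which had between 1278 and 2194 deletions.

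The member with the most deletions was in B2M, which encodes beta-2-microglobulin, the light chain of MHC class I. At chromosome 15, position 44718105 (plus strand), 2194 of 66764 tags carried the deletion (3.29%, interval 3.15 to 3.42%), 40 nt from the end. TIMP3, an inhibitor of metalloproteinases, followed with 2129 of 60950 tags (3.49%, interval 3.35 to 3.64%) at chromosome 22, position 32863026, 15 nt from the end. EMP1, an epithelial membrane protein, had 2080 of 57549 tags (3.61%, interval 3.46 to 3.77%) at chromosome 12, position 13216732, 41 nt from the end. The intervals of these 3 sites show how narrow the counting error was at this depth. SSR1, a subunit of the translocon-associated protein complex, had 1786 deletions at a C, 18 nt from the end, and NDUFAF3, an assembly factor of respiratory complex I, had 1577 at 15 nt. PLAUR, the receptor of urokinase, had 1529 deletions at 10 nt, and TUBA1B, an alpha-tubulin, had 1511 at the last base of a transcript. CD44, a receptor for hyaluronan, had 1449 at 58 nt, ACTN4, an actin crosslinker, had 1360 at 53 nt, and IGFBP4, which binds insulin-like growth factors, had 1278 at 38 nt. The ACTN4 deletion was in a run of 12 A, and there were 14 A in the 20 nt past the end. In 8 of the 10 the deleted base was T. Only the sites in B2M and CD44 had a canonical or variant signal in the last 50 nt of their end.

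The members were spread over the last 100 nt and were densest between 40 and 55 nt from the end. Their median distance to the end was 42 nt (quartiles 21 and 55 nt). There were 320 members at 0 to 9 nt, 639 at 10 to 24 nt, 1160 at 25 to 49 nt, 921 at 50 to 74 nt and 244 at 75 to 100 nt. The end-proximal sites with AATAAA lay closer, at a median of 20 nt (quartiles 11 and 29 nt), and 2.63% of them were at 50 to 74 nt, against 28% of the members. This difference follows in part from the rule, because AATAAA itself has a preferred place upstream of the end, so it was not tested. Tags and deletions were highest in members at 10 to 24 nt, with medians of 7134 tags and 75 deletions, and lowest at 75 to 100 nt, with 2406 tags and 54 deletions. The members farthest out were few. Those at 100 nt were in HP1BP3, MED10, ENSG00000271741, HAT1 and TXNDC9, with 32 to 119 deletions, and sites in FAT1, MAP1B and SLC39A14 at 101 nt fell outside the limit with 50 to 170 deletions.

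**Figure D2:**
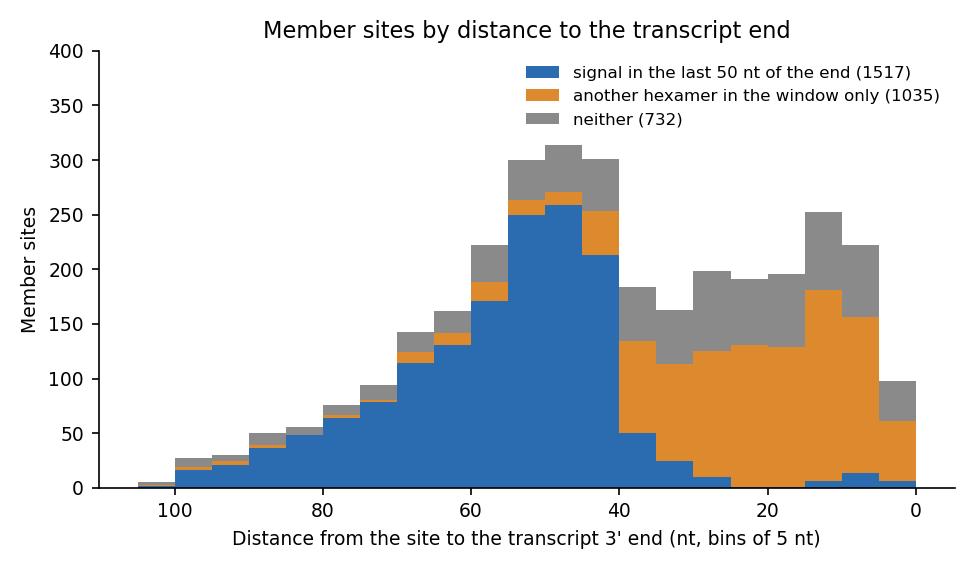
Number of members by distance to the nearest downstream transcript 3′ end (bins of 5 nt, end at the right). Blue members (1517) had a canonical or variant signal in the last 50 nt of the end, orange members (1035) had only another poly(A) signal hexamer within 25 nt, and grey members (732) had neither. The blue group lies mostly beyond 40 nt and the orange group mostly within it.

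Absence of the signal beside the site did not mean absence at the end. Of the 3284 members, 1517 (46.2%, interval 44.5 to 47.9%) were upstream of an end whose last 50 nt held AATAAA or ATTAAA, outside the searched window. The signal was downstream of the site in 1489 of them and upstream in 28. Its first base was a median of 20 nt from the end (quartiles 18 and 24 nt), compared with 21 nt (quartiles 18 and 24 nt) in the end-proximal sites with AATAAA. The deletion was a median of 32 nt upstream of the signal (quartiles 26 and 44 nt). The share depended on the distance. It was 80.9% at 50 to 74 nt and 76.6% at 75 to 100 nt, 48.0% at 25 to 49 nt, and 1.25% at 10 to 24 nt, where a signal at its usual place would lie inside the window that the rule searched. At 0 to 9 nt it was 6.25% (20 of 320, interval 4.08 to 9.46%). Since the rule bars the signal only near the site, these shares describe the set and were not tested. Examples with the run of the deletion in capitals are CD44 and MT2A (a metallothionein), with deletions 58 and 43 nt from the end.
CD44, chr11:35232329-35232358, plus strand: atgtatattgctgagTTgaaagcacttatt
MT2A, chr16:56609436-56609465, plus strand: cgtttgctatattccTTTTTctatgaaata
In CD44 the signal started 22 nt downstream of the deleted base and in MT2A 26 nt. The stretches shown end before it.

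Other hexamers that can serve as poly(A) signals were searched in the same window on the transcript strand. There were 9 of them, each a relative of AATAAA, and they can overlap one another. One or more was present beside 1437 members (43.8%, interval 42.1 to 45.5%), against 27.9% of the end-proximal sites with AATAAA and 47.3% of the internal sites without signal. AATATA was in the window of 410 members (12.5%) and TATAAA in that of 403 (12.3%). AGTAAA was beside 226 members (6.88%), AATACA beside 180 (5.48%) and AAAAAG beside 165 (5.02%). CATAAA was beside 141 (4.29%), GATAAA beside 111 (3.38%), ACTAAA beside 83 (2.53%) and AATAGA beside 74 (2.25%). These hexamers were most frequent beside the members nearest to an end. Of the 959 members under 25 nt from an end, 643 (67.0%, interval 64.0 to 70.0%) had at least 1, whereas 309 of the 1165 members at 50 nt or more did (26.5%, interval 24.1 to 29.1%). AGTAAA was beside 12.6% of the near members and 2.23% of the far ones, AATATA beside 19.8% and 6.87%, and AATACA beside 9.91% and 2.49%. AAAAAG was beside 6.67% and 4.46%. The first base of AGTAAA was a median of 24 nt from the end (quartiles 19.5 and 27.5 nt). The searched window of a member under 25 nt from an end also covers genomic sequence past it, and 230 of these 959 had AATAAA or ATTAAA starting past the end.

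**Figure D3:**
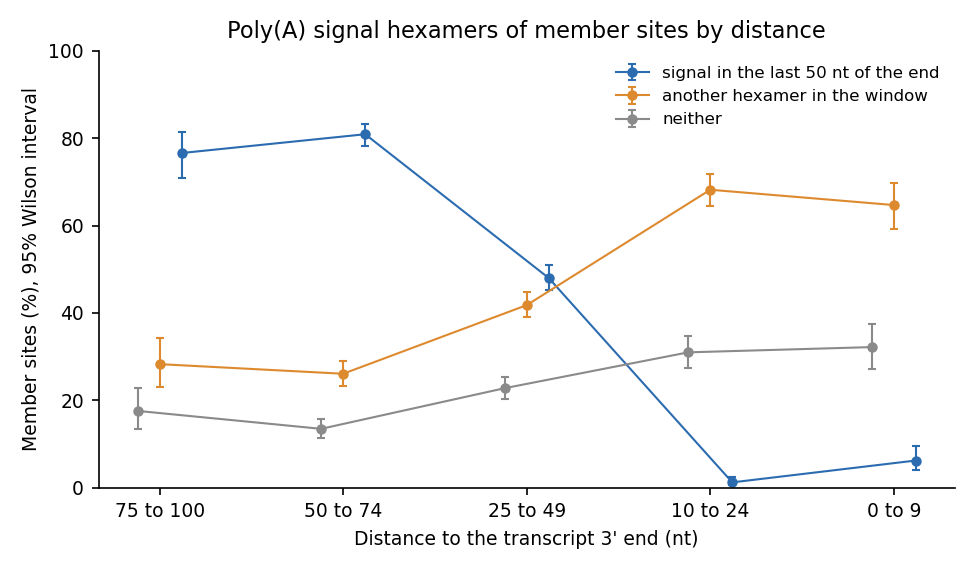
Share of members (%, with 95% Wilson intervals) in 5 classes of distance to the transcript end that had a canonical or variant signal in the last 50 nt of the end (blue), another poly(A) signal hexamer within 25 nt of the site (orange) or neither (grey). A member may be blue and orange at once. Blue falls from 80.9% at 50 to 74 nt to 1.25% at 10 to 24 nt and is 6.25% at 0 to 9 nt, while orange rises from 26.1% at 50 to 74 nt to 68.2% at 10 to 24 nt.

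The members thus fell into 3 groups. The first, 1517 members of 998 genes, had AATAAA or ATTAAA in the last 50 nt of the end. They were a median of 53 nt from it, and T was the deleted base in 79.0%. The second, 1035 members (31.5%, interval 29.9 to 33.1%) of 497 genes, had only another hexamer in the window. They were a median of 20 nt from the end and had the most tags and deletions of the 3 groups, with medians of 6730 and 76. The third, 732 members (22.3%, interval 20.9 to 23.7%) of 410 genes, had neither and lay a median of 29 nt from the end. A stricter search left 433 members (13.2%, interval 12.1 to 14.4%) of 240 genes with none of the 11 hexamers in the window or in the last 100 nt before the end. Any of the 11 could still lie past the end, beyond the window. Of these 433, 134 (30.9%) shared a cluster with a low-deletion 3′UTR site that had AATAAA or ATTAAA in its window. In 68 (15.7%) the 20 nt past the end held 12 or more A.

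Among these 433, the members with the most deletions after NDUFAF3 and IGFBP4 were in SRM, which makes spermidine, and MICB, a stress-induced ligand of natural killer cells. The SRM site had 843 deletions in 22527 tags (3.74%, interval 3.50 to 4%), 8 nt from the end, and the MICB site had 795 in 25065 tags (3.17%, interval 2.96 to 3.40%), at 30 nt. ZFP36L1, whose protein binds AU-rich elements and promotes decay of the mRNA, had 586 deletions at 38 nt from an end, with 14 A in the 20 nt past that end. TUBA1B had 564 deletions at 7 nt. Another TUBA1B member, at the last base of the same end, had AGTAAA starting 15 nt downstream, past the end. MTCH2, a protein of the outer mitochondrial membrane, had 453 deletions at 7 nt. CREB3L1, a transcription factor anchored in the endoplasmic reticulum, had 441 at 33 nt. PABPC1, the cytoplasmic poly(A)-binding protein, had 439 at 4 nt, with 12 A in the 20 nt past the end and a canonical or variant signal 32 nt downstream of the site. TMEM165, a Golgi membrane protein, had 421 at 43 nt. The sites in IGFBP4, SRM and CREB3L1 were at the end of the gene's representative transcript, and the other 7 were at other annotated ends.
MTCH2, chr11:47618720-47618749, minus strand: gcgcgcttttttaataatcaTTTaatcttg
CREB3L1, chr11:46321361-46321390, plus strand: cagctcagcacatgcTTTaagaaagcaaaa
TMEM165, chr4:55425599-55425628, plus strand: taatcattgattctaTTTgtaacaaggagt
These 3 stretches again hold the deletion in a run of 3 T. They differ in what follows the run, which is A in MTCH2 and CREB3L1 and G in TMEM165.

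Many members had a neighbour with the signal. In 1658 members (50.5%, interval 48.8 to 52.2%) the cluster also held a low-deletion 3′UTR site with AATAAA or ATTAAA in its window. That site could lie at any distance from an end. The member was upstream of the strongest such site in 1569 cases, by a median distance of 34 nt over all 1658, and had fewer deletions in 1473. The median ratio of deletions, member over neighbour, was 0.312. The neighbour was picked as the one with the most deletions, whereas every member was counted. Fewer deletions in the member thus follow in part from this choice, and the ratio was not tested. Members with such a neighbour had AATAAA or ATTAAA in the last 50 nt of the end in 77.7% and lay at a median of 49 nt. The 1626 members without one had it in 14%, lay at a median of 27 nt and had another hexamer in the window in 59.0%. At the level of genes, 1116 of the 1720 also had an end-proximal site with a signal, and in 604 every low-deletion end-proximal site was a member. In 701 genes a member was the low-deletion 3′UTR site with the most deletions.

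Most genes had few members. There was 1 member in 1090 genes and 2 or more in 630. CAV1 (chromosome 7, 116524994 to 116561179, plus strand), which encodes the coat protein of caveolae, had 19 at 3 ends with 3874 deletions in all. EMP1 (chromosome 12, 13196723 to 13219941, plus strand) had 18 at 2 ends. TMBIM6 (chromosome 12, 49707725 to 49764934, plus strand), a membrane protein of the endoplasmic reticulum that limits cell death, had 15 at 2 ends, and B2M (chromosome 15, 44711358 to 44718851, plus strand) had 14 at 2 ends. TIMP3 (chromosome 22, 32801705 to 32863041, plus strand) had 13. TIMP3 differed from the other 4 in that it had a single annotated end, at 32863041, and no end-proximal site with AATAAA or ATTAAA, whereas these had 5 to 11.

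Within a gene the deletions were concentrated in a few positions. In TIMP3 the 3 strongest members, at 10, 15 and 37 nt from the end, had 1879, 2129 and 1557 deletions, and the other 10 had 45 to 317. AGTAAA was in the window of 11 of the 13. In EMP1, 17 of the 18 members lay at 1 end that is not that of the representative transcript, with 2080 deletions at 41 nt, 854 at 55 nt, 617 at 13 nt and 51 to 179 at the other 14. That end had TATAAA near it and no AATAAA or ATTAAA within 100 nt of any of these 17 sites. In B2M the 9 members of the representative end lay 40 to 75 nt from it, at 44718145, upstream of a signal, and had 45 to 2194 deletions. The other 5 lay 4 to 33 nt from another end, at 44718067, and had 45 to 129 deletions. Coverage ran on past that end, with 22703 tags at 44718063 and 30316 at the member at 44718070. The signal nearest to these 5 started 64 to 93 nt downstream of them, past that end. Which of the 2 ends they belong to was not tested. In CAV1, 11 members lay 39 to 86 nt from an end with neither signal within 100 nt of these sites, 7 lay 43 to 89 nt from another with a signal in its last 50 nt, and a single one lay 8 nt from the third. The 15 members of TMBIM6 lay at 2 ends. Each had a signal in the last 50 nt of its own end and lay 39 to 79 nt from that end. The end at 49764723, which is not that of the representative transcript, had 17 A in the 20 nt past it.

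**Figure D4:**
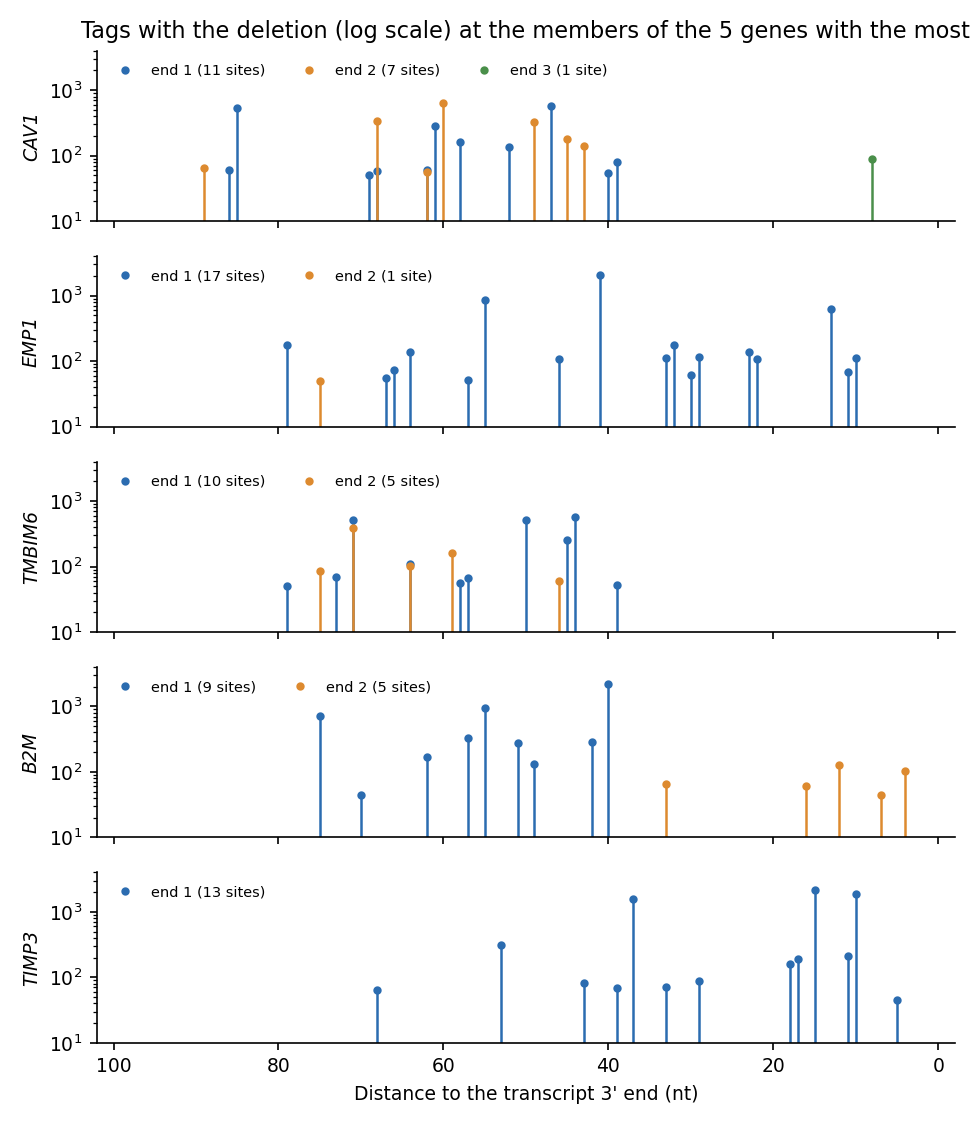
Tags with the deletion (log scale) at each member of the 5 genes with the most, against the distance to its transcript 3′ end (end at the right). Colours separate the annotated ends of a gene, numbered by their number of members. TIMP3 members reach to 5 nt from the end, whereas no TMBIM6 member is closer than 39 nt.

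The hexamers found at an end differed with its annotation. The end of the gene's representative transcript was the nearest for 1365 members (41.6%), and 1919 were nearest to another annotated end. Ends were matched by exact coordinate, so an end a few nucleotides from the representative one counted as another. For MICB, counted as another, the end was at 31511123 and the last base of the gene at 31511124. At the representative end 62.5% (interval 59.9 to 65.0%) had a canonical or variant signal in its last 50 nt and 10.0% had neither this nor another hexamer. At other ends the shares were 34.6% (interval 32.5 to 36.8%) and 31.0%. In the class with AATAAA, 97.7% and 89.6% had a signal in the last 50 nt. Oligo(dT) can also anneal to runs of A within the RNA, so A was counted in the 20 nt of genome past the end. At 204 members (6.21%, interval 5.44 to 7.09%) these held 12 or more A, against 115 (1.37%) of the end-proximal sites with AATAAA. All 204 were at ends of other transcripts, where they made up 10.6% (interval 9.33 to 12.1%). At representative ends there were 0 of 1365, which allows a share of up to 0.220% if the limit is set at 3 counts of the total, and up to 0.281% as the Wilson interval. In the third group, with neither a canonical or variant signal in the last 50 nt nor another hexamer in the window, 15.4% had such an A-rich stretch, compared with 1.58% of the first group. The part of A-rich sequence in these results was not tested. Only 8 members were nearest to ends that are annotated solely as incomplete, and for 58 the 3′UTRs of more than 1 gene overlapped at the site.

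T was the deleted base in 2450 members (74.6%, interval 73.1 to 76.1%), A in 448 (13.6%), G in 204 (6.21%) and C in 182 (5.54%). Of the deleted T, 43.6% were in runs of exactly 3 and 32.0% in runs of 4 or more, and 6.45% stood alone. Deleted C stood alone in 73.6%. The deletion percentage had a median of 2.17% at T, 0.911% at A, 0.614% at G and 0.563% at C. In the end-proximal class with AATAAA, T made up 59.1% of deleted bases and A 28.6%, and in the internal class without signal T made up 76.2% and A 12.1%. Over all distances the members stood near the internal class in this measure, but their shares differed with the distance. Members under 25 nt from the end had T in 70.2% and A in 17.8%. This was close to the end-proximal sites with ATTAAA and not AATAAA, with 69.7% and 17.6%. Members at 50 nt or more had T in 79.1% and A in 9.70%. Windows of the class with AATAAA hold this A-rich hexamer by the rule, and its part in the deleted A was not tested. Where the deletion was in a run of 3 or more T, the next base was A in 834 of 1853 members (45.0%, interval 42.8 to 47.3%), and in 42.1% (interval 40.7 to 43.5%) of such runs elsewhere in the same windows. AT followed 21.8% of the runs with the deletion (interval 20 to 23.7%) and 17.5% of the other runs (interval 16.5 to 18.6%). These counts were made after the printed sequences had been seen, and they are given without a test.

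Features that the rule did not use were tested against the internal low-deletion 3′UTR sites that likewise lack AATAAA and ATTAAA. Each gene gave its site with the most deletions, and the 287 genes with sites in both classes were left out, which left 1433 genes with members and 643 with internal sites. The p-values are from two-sided Fisher exact tests, adjusted by the Benjamini-Hochberg method over the 5 features. They measure the spread over genes in 1 pooled list and not that between replicates. Another poly(A) signal hexamer was in the window in 40.7% of member genes (interval 38.2 to 43.2%) and in 48.5% of internal genes (interval 44.7 to 52.4%). The difference was -7.84 percentage points (95% interval -12.4 to -3.22, Fisher exact test, adjusted p = 0.00470). Over all distances, members had these hexamers less often than internal sites in this test, but the call was lost with a search of 10 nt on each side (-3.80 points, Fisher exact test, adjusted p = 0.190). Without members and internal sites that share a cluster with a signal-bearing site, an alternative chosen after the data were seen, the direction turned (2.17 points, Fisher exact test, adjusted p = 0.943). The direction also depended on the distance. With only members under 25 nt from the end the share was 65.1% in 473 genes against 47.9% in 839 internal genes (difference 17.2 points, interval 11.7 to 22.5, Fisher exact test, adjusted p = 9.04e-09), a split chosen after the data were seen. With only members over 25 nt from the end it was 32.9% in 1129 genes against 48.0% in 681 (difference -15.1 points, interval -19.7 to -10.4, Fisher exact test, adjusted p = 1.14e-09). Differences by distance also depend on the rule, which bars AATAAA and ATTAAA near the site. Of the members under 25 nt, 2.92% had either in the last 50 nt of the end, against 80.0% at 50 nt or more.

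The AUA motif that the study describes for RBMS3 has A, G or T, then A or T, then ATA, then A or T, then A. It was in the window of 21.8% of member genes (interval 19.7 to 24%) and 25.3% of internal genes (interval 22.1 to 28.9%), a difference of -3.58 points (interval -7.64 to 0.320, Fisher exact test, adjusted p = 0.199). The pattern can overlap the hexamers. In 251 of the 312 member genes with a match every match overlapped one, as in 145 of the 163 internal genes with a match. A match clear of all 11 hexamers was present in 4.26% of member genes (interval 3.33 to 5.43%) and 2.80% of internal genes (interval 1.78 to 4.38%). TGTA, which as UGUA in RNA is bound by cleavage factor Im, was in 51.2% of member genes and 48.7% of internal genes (difference 2.54 points, interval -2.10 to 7.17, Fisher exact test, adjusted p = 0.494). The deleted base was T in 81.9% and 81.0% (difference 0.830 points, interval -2.69 to 4.57, Fisher exact test, adjusted p = 0.834). The deletion was in a run of 3 or more T in 71.5% and 70.9% (difference 0.541 points, interval -3.60 to 4.82, Fisher exact test, adjusted p = 0.834). For these 4 features the interval of the difference includes 0. The same tests with members over 25 nt from the end alone gave a lower share of AUA (-6.15 points, Fisher exact test, adjusted p = 0.00665) and a higher share of TGTA (6.40 points, adjusted p = 0.0146). With members under 25 nt from the end alone, TGTA was less frequent than in internal genes (-6.90 points, Fisher exact test, adjusted p = 0.0298), as was a deletion in a run of T (-6.53 points, adjusted p = 0.0298), and the difference in AUA was 3.39 points (Fisher exact test, adjusted p = 0.192). With 50 nt searched on each side over all distances, AUA was more frequent in member genes (10.5 points, Fisher exact test, adjusted p = 5.43e-05). Of the 843 member genes with a match, 752 then had it only in overlap with a poly(A) signal hexamer, as did 269 of the 311 internal genes with a match.

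**Figure D5:**
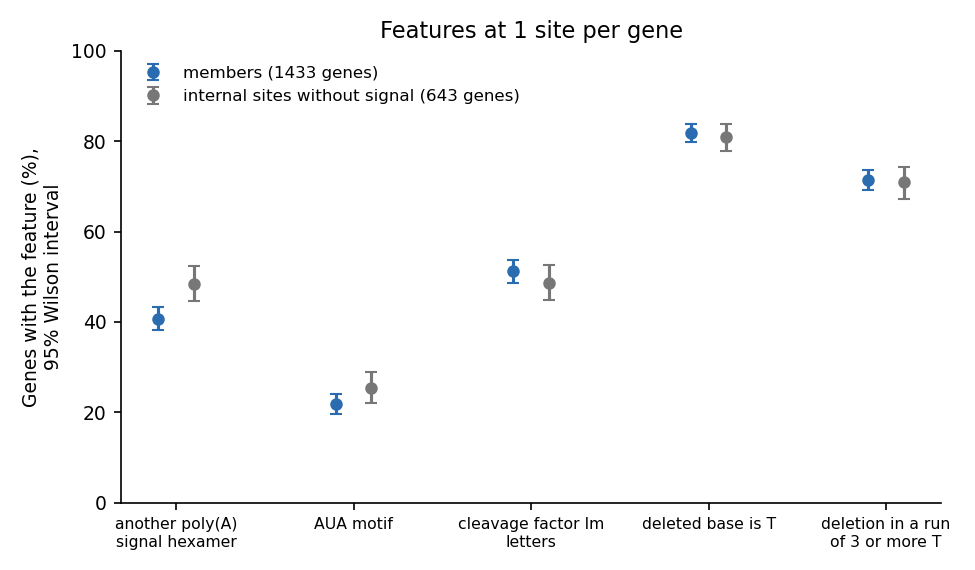
Share of genes (%, with 95% Wilson intervals) whose site had each of 5 features, for 1433 genes with members (blue) and 643 genes with internal sites without signal (grey), 1 site per gene. The letters bound by cleavage factor Im are those of its UGUA motif. The intervals are apart only for another poly(A) signal hexamer, 40.7% against 48.5%.

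A scan of all 4096 hexamers in the same windows used no motif chosen in advance. None had an adjusted p under 0.05 (two-sided Fisher exact test, Benjamini-Hochberg adjustment), so 0% were called. At an unadjusted p under 0.05 (Fisher exact test) there were 138 of the 4096. Only 3864 were present in any window, and rare ones can hardly reach a low p, so this share cannot be set against the threshold. Of these, 58 were more frequent in member genes and 80 less frequent. All of the 10 with the lowest p were less frequent in member genes. With more member genes than internal genes, rare hexamers reach a low p more easily in that direction. AGGTAG, in 0 member genes and 4 internal genes, had an unadjusted p of 0.00914 (Fisher exact test). CACTGG, in 15 member genes and 0 internal genes, had 0.00836 (Fisher exact test). TGAATA was in 2.65% of member genes and 6.38% of internal genes, followed by ATAAAT with 5.16% and 9.64% and AAAAAC with 2.65% and 6.07%. ATTACA was in 1.19% and 3.58%, TACGTA in 0.0698% and 1.24%, and TATAAA in 11.5% and 17.0%. TATTTA was in 9.98% and 14.9%, ACGTAA in 0.0698% and 1.09%, TTAAAA in 9.07% and 13.7%, and CAAAGC in 0.349% and 1.71%. For these 10 the adjusted p was between 0.330 and 0.694.

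Lists of genes were compared by how many of their genes with a low-deletion 3′UTR site had a member, beside 31.6% of the 5440 such genes overall. The machinery of cleavage and polyadenylation had members in 5 of 14 genes (35.7%). These were CPSF6, a subunit of cleavage factor Im, CSTF1, a subunit of the cleavage stimulation factor, the poly(A) polymerases PAPOLA and PAPOLG, and PABPC1. PABPC1 carried the 3 strongest of the 13 members of the list, with 439 and 187 deletions 4 and 0 nt from the end at 100703285 of chromosome 8 and 173 at the last base of an end at 100703161. Both ends had at least 12 A in the 20 nt that follow. TGF-beta and mesenchymal genes had members in 10 of 16 (62.5%), among them CD44, FN1, ITGB1, SMAD3, TGFBR2, VIM and ZEB1. These had 20 members, at a median of 57 nt. Of the 20, 16 were upstream of an end with a signal in its last 50 nt, against 46.2% of all members. FN1, which encodes fibronectin, had 93 deletions in 1473 tags (6.31%) at 44 nt, and a further site of CD44 at 18 nt from another end had 112 in 2357 (4.75%) with CATAAA beside it. The genes of the pooled screen of the study, chosen in part on these libraries, had members in 3 of 13, with 73 deletions in SCOC, 41 in STK39 and a member in CLIC6.

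Cytosolic ribosomal proteins had members in 13 of 58 genes (22.4%). The strongest was in RPL7A, with 259 deletions in 26925 tags (0.962%), 17 nt from the end, with CATAAA and AATACA in its window and no signal-bearing site beside it. RPL5 and RPL37A followed with 254 and 210 deletions at 48 and 43 nt, both with a signal downstream. The nuclear-encoded respiratory chain had members in 14 of 52 genes (26.9%). Of its 27 members, 18 had the signal in the last 50 nt, against 46.2% of all members. ATP5F1B, the beta subunit of ATP synthase, had 645 deletions in 35755 tags (1.80%) at 45 nt and 237 at 60 nt, and COX6A1 had 246 at 43 nt. Proteasome genes had members in 13 of 33 (39.4%). Of their 22 members, 8 had none of the 11 hexamers, against 13.2% of all members. PSMA7 had 297 deletions in 15334 tags (1.94%) at 39 nt, with the signal downstream. PSMB5, a catalytic subunit, had 289 in 13731 tags (2.10%) at 32 nt without any of the hexamers, and PSMA2 had 206 at 38 nt. Replication-dependent histone genes, whose mRNAs end in a stem-loop and have no poly(A) tail, had no low-deletion 3′UTR site in any of the 70 genes. The lists were described by these counts and not tested, and the share of a list also depends on how many ends its genes have.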

How the data were processed

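The authors appended molecular identifiers to the reads, aligned them to hg38, reduced them to unique tags, pooled both replicates and called sites from deletions with the CLIP Tool Kit, keeping those under a false discovery rate of 10% and over a fold whose base is not given in the sources used here. The deposited values are counts per site, of pooled tags and of tags with the deletion, with no normalization. No counts per replicate and no library totals were analysed here, so depth is given per site. Libraries were captured and primed with oligo(dT), which can also take up RNA that ends in its own poly(A) tail, and this bears on any site near an end.

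The deleted base was taken as the centre of the 21-nt interval, counted from 1. Sites were placed on GENCODE release 44, and an end was the 3′ end of a transcript with an annotated 3′UTR in the same gene. A site in several genes went to the gene with the nearest end. A signal had to lie whole within the 51-nt window. Shares were compared by two-sided Fisher exact tests with Benjamini-Hochberg adjustment and a threshold of 0.05, with 95% intervals of differences and of shares. In the tests of simulated windows the scan called a hexamer planted in a large share of windows and none without it. Differences as small as those seen here were not simulated, so the power of the scan for them is not known. The tools were samtools 1.23.1, matplotlib 3.10.9, pysam 0.24.0, pandas 2.3.3, scipy 1.17.1, numpy 2.4.6 and Python 3.11.15.

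The members, gene lists and tests were chosen with earlier results of these data known. Named are the 10 members with the most deletions, the 10 with the most among those without any of the 11 hexamers (both 1 per gene), the 5 genes with the most members, the 3 strongest members per list, the 10 hexamers with the lowest p, and sites at the limits of the rule. The alternatives were other minimum deletions, limits on the deletion percentage, distances, windows, ends, and ways to pick sites. Some results are not reported here.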

Additional observations from a re-analysis of the deposited data

How the results depend on the processing

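The lower share of another poly(A) signal hexamer in members than in internal sites was between -15.1 and -5.69 points and past the threshold in 9 of 12 alternatives, 1 of which, at least 20 deletions per site, removed no site and so repeats the reported value. It was -3.80 points (Fisher exact test, adjusted p = 0.190) with a search of 10 nt on each side. It reversed to 17.2 points with members under 25 nt from the end and to 2.17 points (Fisher exact test, adjusted p = 0.943) without members and internal sites that share a cluster with a signal-bearing site, both chosen after seeing the data. For AUA, the difference passed the threshold at -3.83 points with genes of both classes kept and at -6.15 points with members over 25 nt from the end. It reversed to 10.5 points (Fisher exact test, adjusted p = 5.43e-05) with a search of 50 nt on each side. In that search 752 of the 843 member genes with a match had it only in overlap with a poly(A) signal hexamer, as did 269 of 311 internal genes. The difference also reversed to 3.39 points with members under 25 nt. For TGTA, it passed at 4.70 points with both classes kept and at 6.40 points with members over 25 nt, and reversed to -6.90 points with members under 25 nt and to -0.0233 points with 50 nt searched on each side. For a deleted T, it reversed to -1.72 points with at least 50 deletions, -0.716 points with every site, -4.69 points with members under 25 nt and -0.195 points without clusters that hold a signal-bearing site, none past the threshold. For a run of T, it reversed to -2.76 points with at least 50 deletions, -0.656 points with deletions in under 10% of tags, -2.34 points with every site, -0.387 points with internal sites over 500 nt from an end and -6.53 points (Fisher exact test, adjusted p = 0.0298) with members under 25 nt. The causes of these moves were not tested. Hexamers called rose from 0 to 1 with members over 25 nt from the end (less frequent in members) and to 6 with 50 nt on each side (1 more and 5 less frequent).

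The number of members was 2135 with 1 representative transcript per gene, 2172 with a limit of 50 nt and 1711 with no signal within 50 nt on either side, since each rule is narrower. The median distance was then 49, 28 and 29 nt, and it was 40 nt with at least 50 deletions and also with the ends of all annotated transcripts. The share with a signal in the last 50 nt of the end was 63.0%, 28.9% and 15.1% under those 3 rules, 43.6% with at least 50 deletions, 48.6% with ends of protein-coding transcripts and 42.7% with all annotated transcripts. It was 48.9% over the last 100 nt and 53.6% with 1 site per end. The ends of all transcripts and those not annotated as incomplete were alternatives chosen after seeing the data, and the latter gave 3280 members. Because the list pools both replicates, no replicate could be left out, and a member may rest on 1 replicate. No member had fewer than 32 deletions or 111 tags, so sites in transcripts with low coverage could not be seen.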
